A study of Argyrosomus regius with 12 samples.

Results

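The comparison is about the spleen of young meagre, Argyrosomus regius, a bony fish of the sea, 4 h after an injection into the body cavity. The LPS fish received lipopolysaccharide (LPS) obtained from Photobacterium damselae subsp. piscicida Lg41/01, at 10 µg per g of fish, and the PBS fish received phosphate buffer saline (PBS). It uses 6 of the 12 libraries of the study, chosen by their labels, namely 3 LPS 4 h and 3 PBS 4 h libraries, and the other 6 are the same treatments at 24 h. All fish weighed about 22 g and were kept at 22 °C. Each library holds the pooled spleens of 4 fish, so 12 fish stand behind each group, and p-values measure the spread between pools of different fish. In RNA from whole spleen, fewer cells of a type and less RNA per cell cannot be told apart.

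LPS is the main component of the outer membrane of Gram-negative bacteria. In mammals it is bound by a Toll-like receptor complex on macrophages and related cells, which starts the transcription of cytokines, chemokines and other inflammatory genes within hours, and the strength of LPS sensing is known to differ between fish and mammals. The spleen of bony fish filters blood and is one of their main organs of immune cells, which makes it a usual place to look for an early response. The study's transcripts carry identifiers of the Trinity assembler, and the file does not pair them with gene names. The response is therefore described by its size, its direction and the abundance of its genes, and the labelled tissue could not be checked against marker genes.

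Counts of all isoforms were added up per Trinity gene, the assembler's group of transcripts taken to come from 1 locus. This gave 42480 Trinity genes, of which 38013 hold 1 isoform. Total counts were 40319889, 32821943 and 36396959 in LPS 4 h replicates 1 to 3, and 29614365, 35853457 and 33024984 in PBS 4 h replicates 1 to 3. Between 91.8% and 94.3% of Trinity genes had a count in each of the 6 libraries. Levels are given in CPM, counts brought to a common library size with library totals scaled by TMM, which had factors of 0.923, 1.06 and 0.799 in the LPS pools and of 1.05, 1.04 and 1.06 in the PBS pools.

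LPS 4 h replicate 2 stood apart from the LPS pools 1 and 3 before any test. To make LPS replicate 2 like LPS replicates 1 and 3, 24.0% and 19.9% of its counts would have to move to other Trinity genes. The share was 16.2% between LPS replicates 1 and 3. LPS replicate 2 differed from PBS replicates 1, 2 and 3 by 9.11%, 16.2% and 9.78%, and the PBS pools differed among themselves by 8.92% to 18.4%. The second LPS pool was thus as near to the PBS pools as these were to each other, and its nearest library of all 11 others was LPS 24 h replicate 1, at 7.91%.

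**Figure D1:**
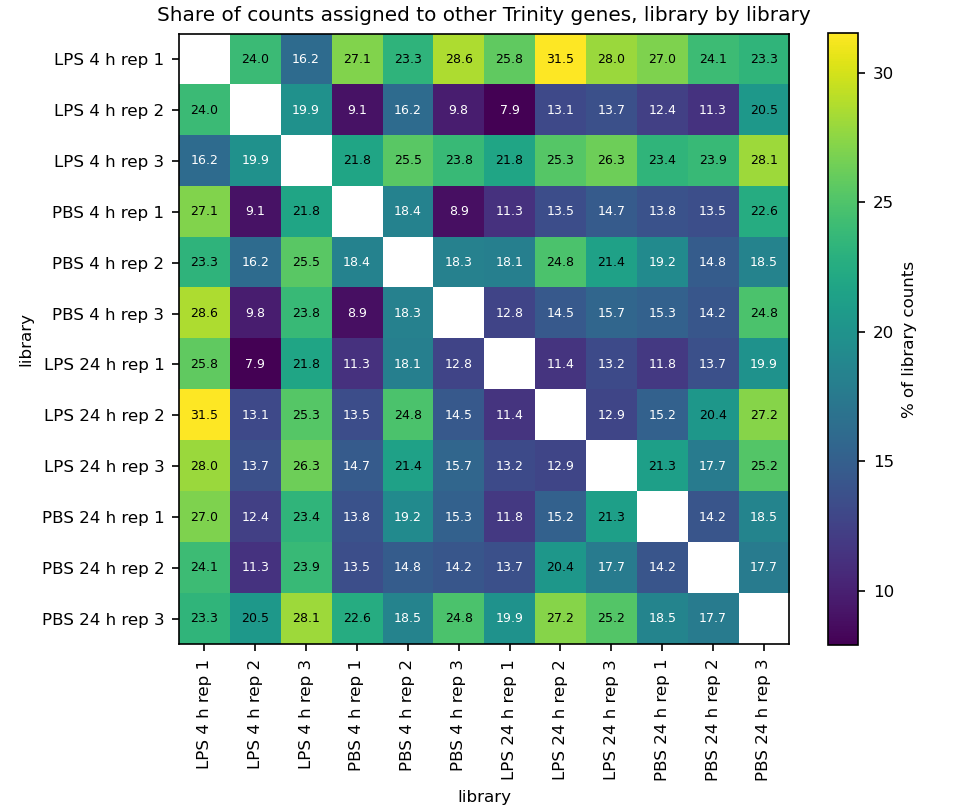
Heat map of the share of library counts, in %, that would have to move to other Trinity genes to make one library like another, for all pairs of the 12 libraries. The rows of LPS 4 h replicates 1 and 3 are high against all others but each other (16.2%), while LPS 4 h replicate 2 is low against PBS 4 h replicates 1 and 3.

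The same order appeared gene by gene. Over 24223 tested Trinity genes with a mean of at least 1 CPM, the median absolute difference in log2 CPM was 0.55 between LPS replicates 2 and 1, 0.53 between LPS replicates 2 and 3, and 0.35 between LPS replicates 1 and 3. It was 0.24, 0.30 and 0.23 between LPS replicate 2 and PBS replicates 1, 2 and 3, and 0.22 to 0.29 among the PBS pools. A difference of at least 2-fold separated LPS replicate 2 from LPS replicate 1 in 25.8% of these genes, and from PBS replicate 1 in 5.20%. LPS replicate 2 was the odd pool of its group, farther from the other 2 than they were from each other, in 50.4% of the genes, against 25.8% for LPS replicate 1 and 23.8% for LPS replicate 3. The most distant pools of the other groups reached 42.3% (PBS 4 h replicate 2), 47.2% (LPS 24 h replicate 2) and 39.0% (PBS 24 h replicate 1).

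The first question was which Trinity genes LPS had altered at 4 h with all 3 LPS pools kept. Of 32542 Trinity genes tested, edgeR called 1 higher (0.00307%) and 0 lower in LPS pools at a Benjamini-Hochberg adjusted p below 0.05. An unadjusted p below 0.05 was reached by 6407 (19.7%), of which 3779 (11.6%) were higher and 2628 (8.08%) lower in LPS pools. That number was 11594 without LPS replicate 2, and 3984 and 3561 without LPS replicates 1 and 3 in turn. The same share between PBS 24 h and PBS 4 h pools, which share the PBS 4 h pools with this comparison, was 6.20%. At an adjusted p below 0.05, edgeR called 5 of 32542 genes between these PBS groups, against 1 between LPS and PBS at 4 h. Both contrasts came from 1 fit, so the spread between LPS 4 h pools also entered the test of the PBS groups. The PBS numbers are therefore not a baseline free of the LPS pools. The number of calls depended on the tool, since DESeq2 called 2321 (7.13%; 1731 higher and 590 lower) and limma-voom 0 on the same libraries, with 6381 at an unadjusted p below 0.05 by limma-voom, 3072 higher and 3309 lower. With the 6 libraries of 4 h alone edgeR called 1 of 30829 (0.00324%).

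A weighted test of the same 3 LPS pools gave a far larger number of calls. With limma-voom and a quality weight per library, in which the data set how much each library counts, 6905 Trinity genes (21.2%) were called, 3486 higher and 3419 lower in LPS pools. LPS 4 h replicate 2 had a weight of 0.233, the lowest of the 12, against 1.24 for LPS replicate 1 and 0.913 for LPS replicate 3, and 1.09 to 1.74 for the PBS 4 h pools. Leaving that pool out gave a similar number. Without LPS 4 h replicate 2, edgeR called 7454 of 33524 Trinity genes (22.2%), 3711 (11.1%) higher and 3743 (11.2%) lower in LPS replicates 1 and 3 than in PBS pools. Likewise without that pool, DESeq2 called 25.4%, limma-voom 20.8% and edgeR with the 4 h libraries alone 21.0%. Of the 6905 calls of the weighted test, 6428 were among the 7454 in the same direction, which is 93.1% of the weighted list and 86.2% of the edgeR list. The weights were set by these same libraries and gave LPS replicate 2 little say. Both lists thus rest largely on the same pools, and their overlap is no separate support. The count of calls therefore turned on 1 pool, and without it the LPS group holds 2 pools.

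The calls without LPS replicate 2 were similar in number and size in both directions, and which direction had more depended on the scaling, with 3877 higher and 3544 lower under median-ratio and 3476 higher and 4137 lower under upper-quartile scaling. Among the 3711 Trinity genes called higher, the quartiles lay between log2 fold changes of 1.01 and 2.03 around a median of 1.42. Among the 3743 called lower, they lay between -2.04 and -0.97 around a median of -1.38. In these values the 5 higher and 37 lower genes at 0 counts in a whole group stand at their bound, taking 3 counts per library as the floor. A change of at least 4-fold was seen in 970 of the genes called higher and 978 of those called lower, and of at least 32-fold in 68 and 36. Changes below 2-fold made up 24.3% of those higher and 26.7% of those lower. All these sizes include 114 genes called higher and 40 called lower that were not in the test of all 3 LPS pools. Those genes passed the expression filter only without LPS replicate 2, so their calls are no support. With all 3 LPS pools, the genes at an unadjusted p below 0.05 had smaller medians, 1.10 for the higher and -0.99 for the lower ones. The 2 lists differ in threshold as well as in pools, so this difference cannot be put down to LPS replicate 2.

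In LPS replicates 1 and 3 the genes called higher made up a large part of the counts. The Trinity genes called higher took 24.995% and 27.1% of all counts in LPS replicates 1 and 3, 11.4% in LPS replicate 2, and 10.1% to 11.04% in the PBS 4 h pools. The genes called lower took 3.44% and 3.11% in LPS replicates 1 and 3, 8.24% in LPS replicate 2, and 7.78% to 9.83% in the PBS 4 h pools. At 24 h, the genes called higher at 4 h were at 10.0% to 12.5% in LPS pools and 8.24% to 9.97% in PBS pools. The genes were chosen on the 4 h values, so these shares describe the size of the shift and test nothing.

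LPS replicate 2 showed little of this shift. Set against the PBS 4 h mean, the 3597 called-higher genes that were also tested with all pools had a median log2 difference of 1.26 in LPS replicate 1, 0.10 in replicate 2 and 1.498 in replicate 3. The 3703 called-lower genes had medians of -1.34, -0.08 and -1.29 in LPS replicates 1, 2 and 3. Among the called-higher genes, LPS replicate 2 lay above all PBS 4 h pools in 1331 (37.0%), inside their range in 1597 and below it in 669 (18.6%). Among the called-lower genes it lay below all PBS 4 h pools in 1238 (33.4%) and above them in 688 (18.6%). Over all tested genes LPS replicate 2 was above the PBS 4 h range in 24.1% and below it in 23.7%. The genes were chosen against these same PBS pools, so this position is a description.

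**Figure D2:**
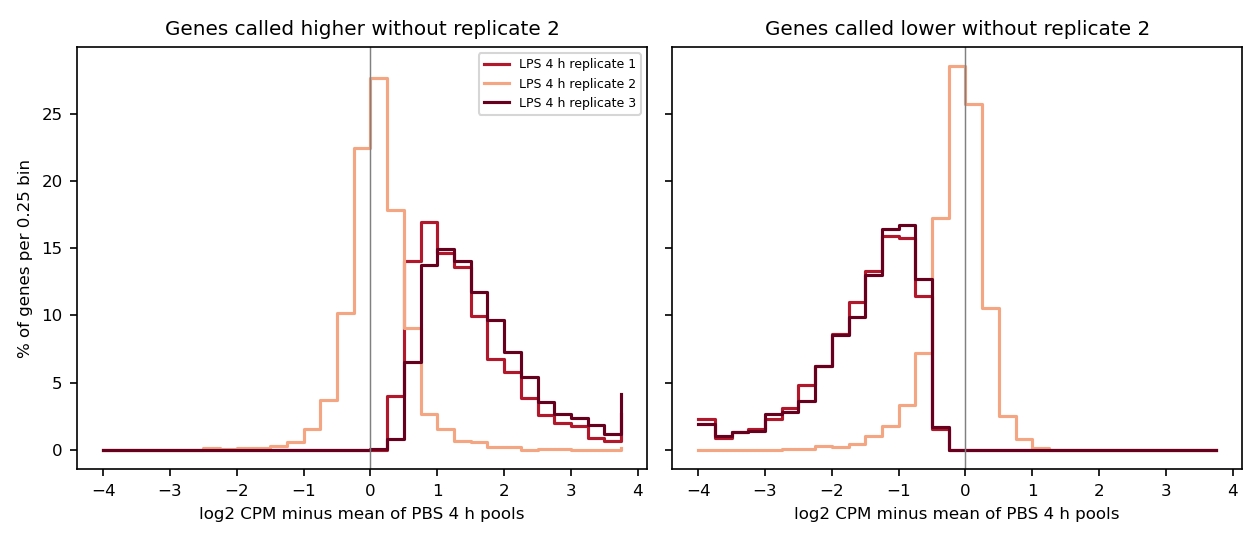
Distribution over Trinity genes of log2 CPM minus the mean of the 3 PBS 4 h pools, as % of genes per bin, for each LPS 4 h pool. The left panel holds genes called higher and the right panel genes called lower by edgeR without LPS 4 h replicate 2, and values beyond the axis are put in the end bins. LPS 4 h replicates 1 and 3 lie on 1 side of 0 by the choice of genes, and replicate 2 is centred near 0.

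The PBS 24 h pools took no part in the 4 h contrast beyond entering the same fit, filter and scaling, and gave a second baseline. Against their range, LPS replicate 2 was above in 52.2% and below in 9.17% of the called-higher genes, where LPS replicates 1 and 3 were above in 98.7% and 99.03%. For the called-lower genes LPS replicate 2 was below the PBS 24 h range in 35.4% and above it in 17.9%. Over all tested genes it was above in 24.9% and below in 23.7%. LPS replicate 2 thus lay more often on the side of LPS replicates 1 and 3 against this baseline too, with a median log2 difference of 0.28 for the called-higher and -0.09 for the called-lower genes. The PBS groups themselves differed for the called-higher genes, with 8.24% to 9.97% of counts in PBS 24 h pools and 10.1% to 11.04% in PBS 4 h pools, and no test was made of this position.

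Single Trinity genes made the difference between LPS pools plain. A gene of 1 isoform was at 205 and 373 CPM in LPS replicates 1 and 3 and at 0.691 in LPS replicate 2, and the PBS 4 h pools held 0.579, 0.860 and 1.26 CPM. Another, of 16 isoforms, was at 76.5 and 133 CPM in LPS replicates 1 and 3, had 0 counts in LPS replicate 2 and stood at 0.193, 0 and 0.171 CPM in the PBS 4 h pools. Both were among the 5 largest rises of genes with a mean of at least 10 CPM, with log2 fold changes of 8.31 and 9.76 without LPS replicate 2 (edgeR, Benjamini-Hochberg adjusted p 2.5e-05 and 7.1e-06). Both were picked by these fold changes, so neither p-value is separate support. The second was not in the test of all 3 LPS pools. The expression filter asks for a level in as many libraries as the smallest group holds. That is 3 libraries with all pools and 2 without LPS replicate 2. The second thus passed only through the 2 LPS pools where it was high, so its p-value is no support. Likewise outside the test of all pools were 114 of the genes called higher and 40 of those called lower, which stay in the counts given above.

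The 5 largest falls by the same rule were less alike. In the largest, of 1 isoform, LPS replicates 1, 2 and 3 were at 0.108, 1.32 and 0.172 CPM, against 0.322, 61.4 and 32.6 CPM in PBS 4 h pools. PBS replicate 1 was as low as the LPS pools there, and LPS replicate 2 was low too, though above PBS replicate 1. At 24 h this gene was at 1.93, 0.173 and 0.144 CPM in LPS pools and at 0.160, 0.175 and 0.109 CPM in PBS pools. Only PBS 4 h replicates 2 and 3 were thus high. In the other 4 falls LPS replicate 2 was not lowered. A gene of 3 isoforms was at 15.8 and 14.8 CPM in LPS replicates 1 and 3 and at 538 in LPS replicate 2, against 531, 271 and 439 CPM in the PBS 4 h pools. A gene of 1 isoform was at 2.56 and 3.37 CPM in LPS replicates 1 and 3 and at 123 in LPS replicate 2, against 104, 89.6 and 96.6 CPM in the PBS 4 h pools. LPS replicate 2 stood above every PBS 4 h pool for these 2 genes and for 1 other, and inside the PBS range for 1, at 33.7 CPM in LPS replicate 2, against 32.5, 15.5 and 34.6 CPM in the PBS 4 h pools.

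Calls were counted in abundance classes, set by the mean CPM over the 6 libraries. Those libraries hold the LPS pools, so a rise helps to lift a gene into a higher class and a fall to lower it. The counts are therefore given also with classes set by the 6 libraries of 24 h, which are not part of the contrast, a choice made after seeing the data. Of the genes tested with all pools, edgeR without LPS replicate 2 called 404 higher and 79 lower among the 1317 at 100 to 1000 CPM, which is 30.7% and 6.0% of the class. With classes set at 24 h it called 199 higher and 112 lower of 1139, or 17.5% and 9.83%. More genes were higher than lower in this class both ways, by a smaller margin with the classes of 24 h.

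The class at 1 to 10 CPM had more falls than rises both ways, with 1109 higher and 1686 lower of 12512 by the 4 h libraries, and 1164 higher and 1569 lower of 12311 by the 24 h libraries. The class at 10 to 100 CPM had 1735 higher and 1280 lower by the 4 h libraries, and 1553 higher and 1474 lower by the 24 h libraries. Below 1 CPM the direction turned with the choice, from 340 higher and 652 lower by the 4 h libraries to 678 higher and 542 lower by the 24 h libraries. Classes set by the PBS 4 h pools alone gave the same order as those of 24 h in these 4 classes, with 674 higher and 499 lower below 1 CPM and 210 higher and 123 lower at 100 to 1000 CPM. No direction is therefore given for the weakest genes.

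The medians of whole classes shared this limit. At 100 to 1000 CPM the median log2 difference from the PBS 4 h mean was 0.24, 0.03 and 0.40 in LPS replicates 1, 2 and 3 with classes set by the 4 h libraries, and 0.03, 0.04 and 0.24 with classes set at 24 h. At 1 to 10 CPM it was -0.10, -0.02 and -0.13 with classes set by the 4 h libraries, and -0.08, -0.02 and -0.12 with classes set at 24 h. Shifts of this size also depend on the scaling: with library totals alone the median of all tested genes moved to -0.21, 0.01 and -0.41 in LPS replicates 1, 2 and 3, from values within 0.04 of 0 under TMM. With library totals, the class at 100 to 1000 CPM by the 4 h libraries lay at 0.06, 0.04 and 0.0017 in LPS replicates 1, 2 and 3. The class at 1 to 10 CPM lay at -0.28, -0.0065 and -0.52. Relative to the median of all genes, the 2 classes lay at 0.26, 0.03 and 0.42, and at -0.08, -0.01 and -0.11. Subtracting that median takes out the scale of a library by construction, so the relative values cannot test the scaling.

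**Figure D3:**
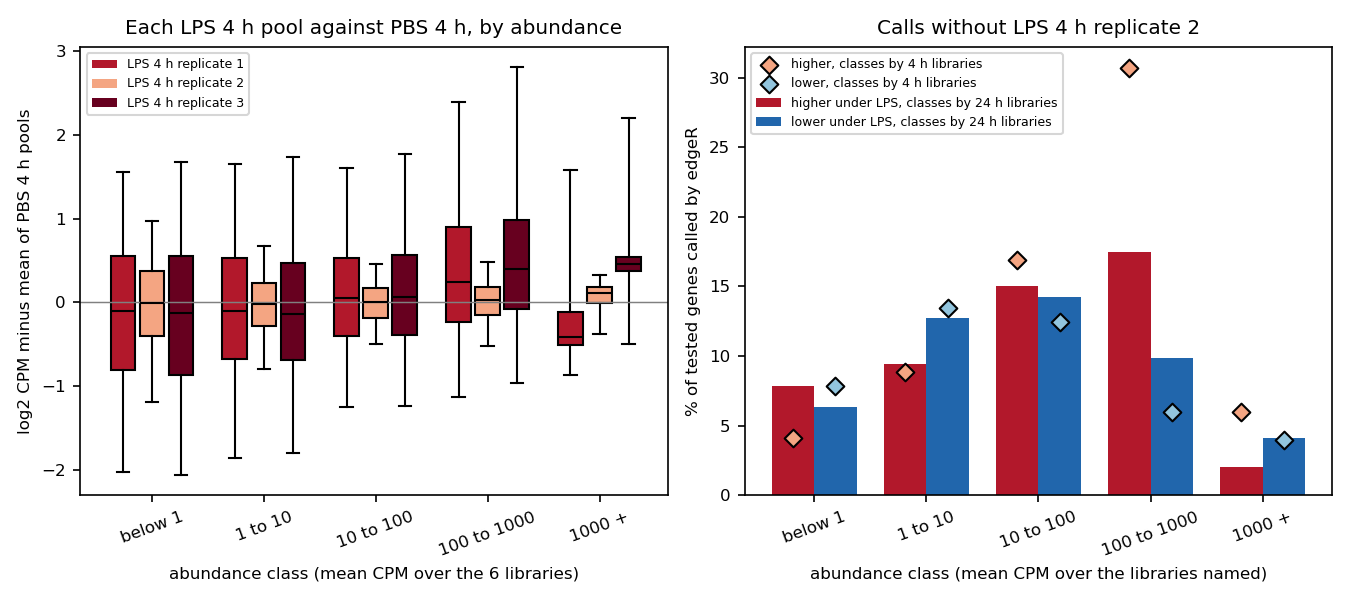
Left: log2 CPM minus the mean of the PBS 4 h pools for each LPS 4 h pool by abundance class over the 6 libraries of 4 h, as median, quartiles (box) and the 5th to 95th percentile (whiskers) over Trinity genes. Right: % of tested genes called higher or lower by edgeR without LPS 4 h replicate 2, as bars with classes set by the 24 h libraries and as diamonds with classes set by the 4 h libraries. At 100 to 1000 CPM the bars stand at 17.5% higher and 9.83% lower, and the diamonds at 30.7% higher and 6.0% lower.

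The 151 most abundant Trinity genes, at 1000 CPM and above, behaved in another way. Their median log2 difference from PBS was -0.42 in LPS replicate 1, 0.12 in replicate 2 and 0.46 in replicate 3. LPS replicate 1 lay below all PBS 4 h pools in 103 of the 151 genes, and LPS replicate 3 above all of them in 121. The quartiles were close, at -0.50 and -0.12 in LPS replicate 1 and at 0.38 and 0.55 in LPS replicate 3. Under TMM most genes of the class thus shifted together within a pool and in opposite directions between the 2 pools. With library totals alone the medians were -0.60, 0.13 and 0.07 in LPS replicates 1, 2 and 3, so the rise in LPS replicate 3 depended on the scaling. The class took 31.4%, 35.5% and 34.5% of counts in LPS replicates 1, 2 and 3, and 34.1% to 35.8% in PBS 4 h pools. Relative to the median of all genes, the values with library totals were -0.40 in LPS replicate 1 and 0.48 in LPS replicate 3. Subtracting that median takes out the scale of a library by construction, so these 2 values cannot test the scaling. With classes set at 24 h the medians were -0.43, 0.13 and 0.45 in LPS replicates 1, 2 and 3, so this pattern did not rest on how the class was set. In this class edgeR called 9 genes higher and 6 lower without LPS replicate 2, and 3 higher and 6 lower with the class set at 24 h.

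Among the 9 genes called higher at 1000 CPM and above by the 4 h libraries, the 3 with the largest log2 fold changes were far weaker in the PBS pools. The first by fold change, of 1 isoform, was at 2437, 91.4 and 4122 CPM in LPS replicates 1, 2 and 3, against 75.5, 50.2 and 126 CPM in the PBS 4 h pools. The next was at 3114, 183 and 5639 CPM in LPS pools, against 277, 142 and 368 CPM in PBS pools. Another was at 3562, 456 and 4049 CPM in LPS pools, against 254, 196 and 329 CPM in PBS pools. For the last of these all 3 LPS pools were above all PBS pools, while for the first and second LPS replicate 2 lay within the PBS range. None of the 3 was called with all LPS pools (edgeR, Benjamini-Hochberg adjusted p 0.0908, 0.0932 and 0.0904). Without LPS replicate 2 all 3 were called (edgeR, Benjamini-Hochberg adjusted p 0.00031, 0.00012 and 4.9e-06). The 3 genes were picked from those called that way, so these last p-values are no support.

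The most abundant Trinity gene of all varied among PBS pools as much as between groups. It was at 61940, 32537 and 40408 CPM in LPS replicates 1, 2 and 3, against 17696, 34621 and 12479 CPM in PBS replicates 1, 2 and 3. The groups overlapped, and the log2 fold change came to 1.06 (SE 0.54, Benjamini-Hochberg adjusted p = 0.300 by edgeR). The next 2 genes by abundance followed the same order over the 6 pools, with adjusted p of 0.318 and 0.267 in the same edgeR test.

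Some Trinity genes separated all 3 LPS pools from all 3 PBS pools, replicate 2 included. The groups did not overlap for 5951 of 32542 genes (18.3%), 2823 (8.67%) with all LPS pools higher and 3128 (9.61%) with all LPS pools lower. Without LPS replicate 2 this number was 16951 of the same 32542 genes, and without PBS replicate 2 it was 9962. Leaving out any pool can only raise it, so a part of each rise comes from having fewer pools. Without LPS replicates 1 and 3 in turn it was 7882 and 7391, and without PBS replicates 1 and 3 in turn 8605 and 8153. PBS 24 h and PBS 4 h pools, without any LPS, did not overlap for 14.2%, 1747 (5.37%) higher and 2889 (8.88%) lower at 24 h. A gap of at least 2-fold between the nearest LPS and PBS pools was left in 44 genes with LPS higher and 46 with LPS lower, against 20 and 161 for PBS 24 h over PBS 4 h pools. A gap of at least 4-fold was left in 9 and 2 genes, against 3 and 30. In the lower direction, wide gaps were thus more numerous between the 2 PBS groups than between LPS and PBS at 4 h.

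The 9 genes with a gap of at least 4-fold on the higher side were at most at 14.2 CPM in any LPS 4 h pool. The widest gap was that of a gene of 1 isoform at 8.50, 9.90 and 13.6 CPM in LPS 4 h replicates 1, 2 and 3, against 0.032, 0.081 and 0.029 CPM in PBS 4 h pools. All 3 LPS pools were alike for it, yet the 24 h pools ranged from 0.032 to 5.44 CPM under LPS and from 0.027 to 22.7 CPM under PBS. Its presence therefore varied between pools that had no LPS, and it was not called (edgeR, Benjamini-Hochberg adjusted p = 0.114). A gene of 6 isoforms was at 13.2, 8.46 and 14.2 CPM in LPS 4 h pools, against 0.322, 1.56 and 0.828 CPM in PBS 4 h pools. It too was present without LPS at 24 h, at 4.83, 3.38 and 0.981 CPM in PBS pools, while the LPS 24 h pools held 3.16, 1.82 and 0.670 CPM. On the lower side, a gene of 1 isoform was at 0.242, 0.202 and 0.207 CPM in LPS 4 h pools, against 2.51, 1.69 and 2.29 CPM in PBS 4 h pools. At 24 h it was at 0.672, 2.97 and 2.44 CPM in LPS pools, against 1.92, 1.08 and 1.58 CPM in PBS pools. The other lower gene, of 4 isoforms, had the wider gap. It stood at 0.296, 0.144 and 0.448 CPM in LPS 4 h pools, against 5.47, 4.49 and 4.40 CPM in PBS 4 h pools. At 24 h its level ran from 0.205 to 5.14 CPM under LPS and from 0.163 to 9.54 CPM under PBS. LPS replicate 2 moved with the other LPS pools in these genes, which were chosen for that.

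The 24 h pools gave the same order for a part of these genes. Of the 2823 Trinity genes with all LPS 4 h pools above all PBS 4 h pools, 974 (34.5%) also had all LPS 24 h pools above all PBS 24 h pools, and over all tested genes this was so for 14.7%. Of the 3128 lower at 4 h, 588 (18.8%) were lower at 24 h in the same way, against 11.7% of all tested genes. With a gap of at least 2-fold at 4 h, 13 of 44 higher genes (29.5%) and 5 of 46 lower genes (10.9%) had the same order at 24 h, and with a gap of at least 4-fold 2 of 9 and 0 of 2. On the lower side the share with wider gaps was thus not above that of all tested genes. The 24 h pools played no part in the choice of these genes beyond the shared scaling and filter, and the difference between the shares was not tested.

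The gene with the lowest p was TRINITY_DN4731_c0_g1, the only call with all 3 LPS pools. It had 79, 59 and 200 counts in LPS replicates 1, 2 and 3, against 0, 1 and 2 counts in PBS replicates 1, 2 and 3. LPS replicate 2 was as clearly above the PBS pools as LPS replicate 1 was. Its level was 3.57 ± 2.88 CPM in LPS pools and 0.028 ± 0.029 CPM in PBS pools (SD, n = 3 each), and the log2 fold change was 6.79 (SE 0.76, Benjamini-Hochberg adjusted p = 0.0331 by edgeR). As the PBS pools held 3 counts in all, a ratio of summed counts was taken, with each sum set against the TMM-scaled library totals. It was 115 with an exact 95% binomial interval from 39.1 to 562, which covers counting error only.

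At 24 h the same gene had 132, 125 and 169 counts in LPS pools, against 1, 1 and 2 counts in PBS pools. All 6 LPS pools of the study were thus above all 6 PBS pools. The log2 fold change at 24 h was 6.39 (SE 0.73, Benjamini-Hochberg adjusted p = 0.00389 by edgeR). The 24 h value minus the 4 h value was -0.40 (SE 1.20, Benjamini-Hochberg adjusted p = 0.879 by edgeR). Of its 4 isoforms, the one numbered i4 carried 66, 49 and 188 of the counts in LPS 4 h replicates 1, 2 and 3. The call was close to the threshold. It held without any 1 of the LPS 4 h pools (edgeR, Benjamini-Hochberg adjusted p from 4.0e-05 to 0.0354) and ended without any 1 of the PBS 4 h, PBS 24 h or LPS 24 h pools (0.0576 to 0.25 by the same test), and with the 4 h libraries alone (0.296).

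The lower gene with the lowest p was TRINITY_DN24627_c0_g1, which has 1 isoform and was not called with all pools. It was at 33.5, 42.8 and 27.9 CPM in LPS replicates 1, 2 and 3, against 83.5, 103 and 95.6 CPM in PBS replicates 1, 2 and 3. The groups were well apart, and LPS replicate 2 lay nearest to the PBS pools. The log2 fold change came to -1.44 (SE 0.21, Benjamini-Hochberg adjusted p = 0.0904 by edgeR). Without LPS replicate 2 it came to -1.62, and the gene was then called (Benjamini-Hochberg adjusted p = 0.00025 by edgeR). At 24 h it was at 29.9, 27.4 and 32.2 CPM in LPS pools, against 65.6, 55.2 and 43.6 CPM in PBS pools, and it was called lower there (Benjamini-Hochberg adjusted p = 0.0380 by edgeR).

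**Figure D4:**
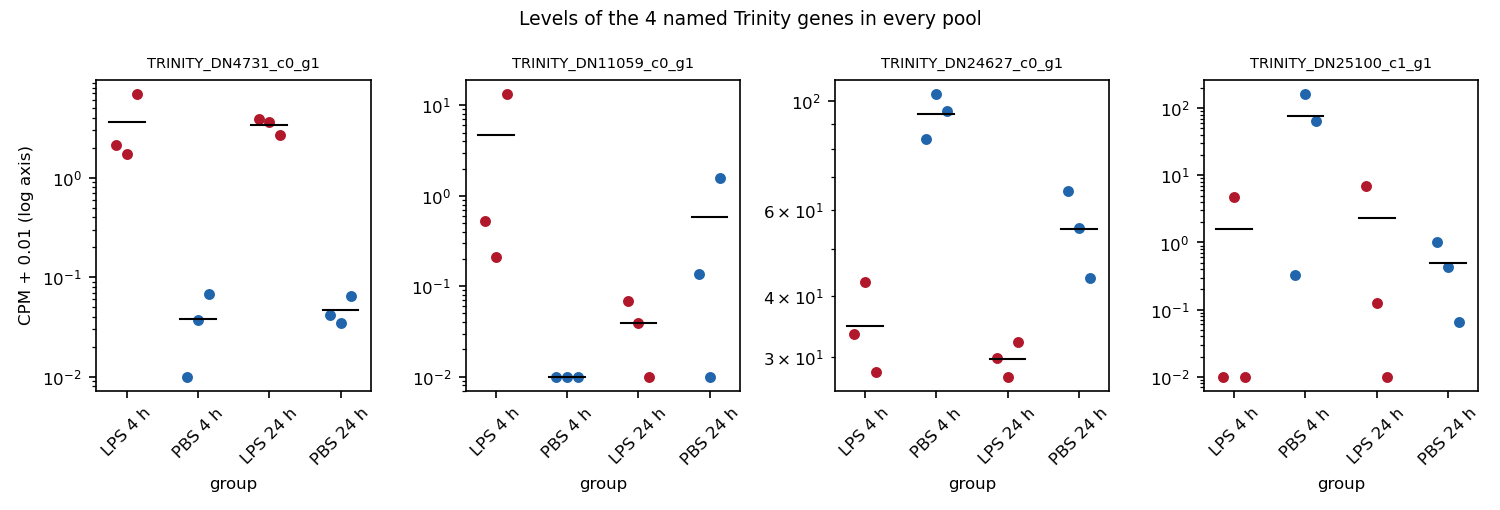
CPM of the 4 named Trinity genes in every pool of the 4 groups, with the group mean as a line, on a log axis after adding 0.01. Only TRINITY_DN4731_c0_g1 and TRINITY_DN24627_c0_g1 separate LPS from PBS pools at both times, while the other 2 vary widely within groups.

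No Trinity gene was switched fully on or off across the groups. With 0 counts in all 3 PBS pools and at least 10 counts in each LPS pool as the rule for on, and the reverse for off, 0 genes were on and 0 were off. The same rule between PBS 24 h and PBS 4 h pools gave 2 on and 1 off. With at least 5 counts, 3 were on and 1 was off under LPS. When single transcripts were counted, 17 were on and 35 off, so single transcripts gave more such cases than the gene sums. Leaving out a pool other than LPS replicate 2 gave 1 to 4 genes on and 0 to 5 off, with the most on without LPS replicate 3 and the most off without PBS replicate 1.

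LPS replicates 1 and 3 shared 6 genes that were on and 8 that were off by the rule of 10 counts. Among these 14, LPS replicate 2 had 0 counts in 4 of the on genes and counts in all 8 off genes. No gene was on or off in all 3 LPS pools. Counts of LPS replicate 2 in all 8 off genes, and fewer than 10 in each on gene, therefore follow from the rule and test nothing. The most even pattern was that of an off gene of 1 isoform with 0 counts in LPS replicates 1 and 3 and 244 in LPS replicate 2, against 245, 320 and 308 counts in PBS 4 h replicates 1, 2 and 3. At 24 h it had 224, 288 and 357 counts in LPS pools, against 265, 309 and 403 counts in PBS pools. It was thus missing from 2 libraries of 12 and evenly present in the other 10. It was at least 91.6-fold lower in LPS replicates 1 and 3 than the mean of the PBS 4 h pools, with 3 counts per library as the floor.

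The on genes were weaker. The clearest by its pattern had 58 and 87 counts in LPS replicates 1 and 3 and 0 in all other 10 libraries. Its mean in LPS replicates 1 and 3 was at least 26-fold that of the PBS 4 h pools with the same floor. Another had 20, 6 and 39 counts in LPS 4 h replicates 1, 2 and 3 and 6, 4 and 14 counts in LPS 24 h pools, against 0 counts in all 6 PBS pools. Of the 6 it is the only one seen in all 6 LPS pools and in no PBS pool.

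By abundance the rule named TRINITY_DN11059_c0_g1 for the on genes and TRINITY_DN25100_c1_g1 for the off genes, and both varied widely within groups. TRINITY_DN11059_c0_g1 had 19, 7 and 386 counts in LPS 4 h pools and 0 in all PBS 4 h pools, but also 58 in PBS 24 h replicate 3. The mean of its 3 LPS pools was at least 53.3-fold that of the PBS 4 h pools with that floor. This mean rested on LPS replicate 3, at 13.3 CPM, against 0.511 and 0.202 CPM in LPS replicates 1 and 2. The gene was not called (Benjamini-Hochberg adjusted p = 0.138 by edgeR). TRINITY_DN25100_c1_g1 had 0, 164 and 0 counts in LPS 4 h replicates 1, 2 and 3, against 10, 6038 and 2230 counts in PBS 4 h replicates 1, 2 and 3. It was not called either (Benjamini-Hochberg adjusted p = 0.249 by edgeR).

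**Figure D5:**
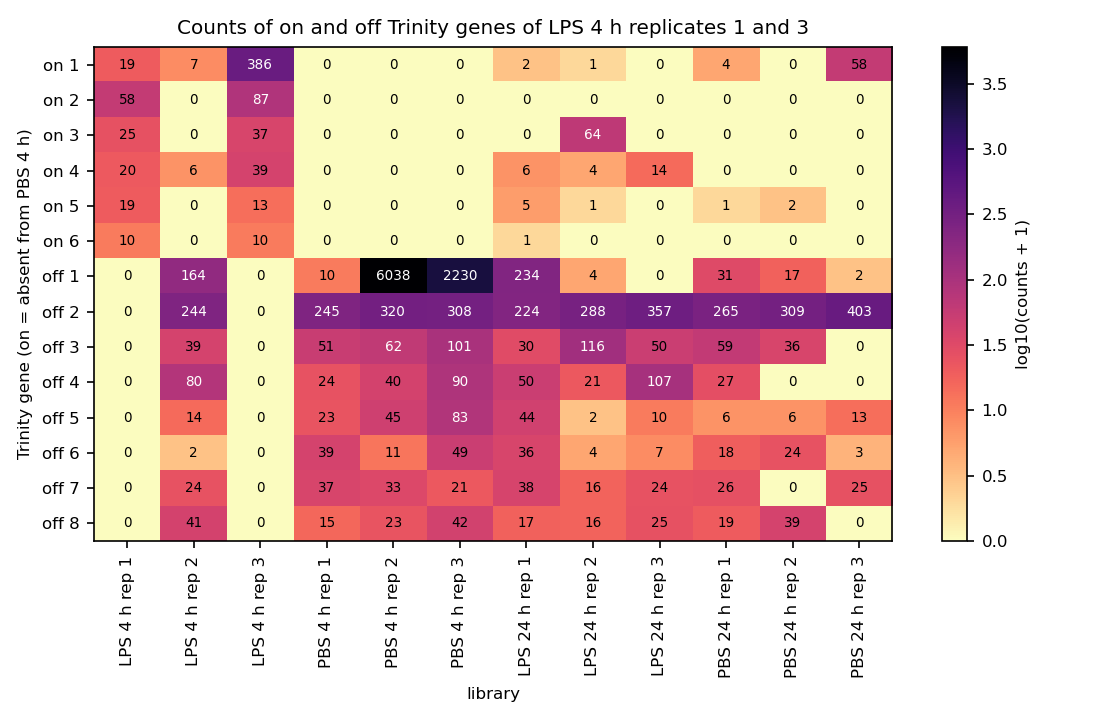
Counts in all 12 libraries of the 6 on and 8 off Trinity genes shared by LPS 4 h replicates 1 and 3, each row a gene ordered by its level where it was detected, with colour on a log10(counts + 1) scale. The second off gene has 0 counts in LPS 4 h replicates 1 and 3 and 224 to 403 in all other libraries, and the second on gene is seen in LPS 4 h replicates 1 and 3 only.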

How the data were processed

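RNA was measured in 12 spleen libraries, 3 pools of 4 fish in each of 4 groups, made with a directional kit per the labels. The authors deposited estimated counts per assembled transcript as whole numbers, in 1 matrix of 58975 transcripts. Tools listed in the submitters' processing notes, without their roles, are RSEM, Bowtie2, Trimmomatic 0.39, DESeq2 and FastQC. How the transcripts were assembled and annotated, and whether counting used strand, is not stated in those notes or the labels. RSEM gives expected counts, and the deposited values were taken to be such expected counts after rounding. Reads shared by isoforms or near-identical gene copies are split by estimate.

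Counts were summed per Trinity gene and tested with edgeR 4.0.16 in R 4.3.3 (quasi-likelihood test, robust estimation, TMM, 1 mean per group, all 12 libraries). The expression filter kept 32542 of 42480 Trinity genes (76.6%). Without LPS 4 h replicate 2 the smallest group holds 2 pools, which relaxed the filter, and 33524 were kept. Calls had a two-sided p below 0.05 after Benjamini-Hochberg adjustment over all genes tested. Log2 CPM used a prior count of 2. Alternatives used DESeq2 1.42.0, limma 3.58.1 (voom, with and without quality weights), other scalings, filters and thresholds, single transcripts, the replicate number as a block and each pool left out. The sets without LPS 4 h replicate 2 under other scalings or with the block, scaling by library totals alone, and abundance classes set by the PBS 4 h pools or the 24 h libraries, were added after seeing the data.

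The rule for named genes took, in each direction, the gene with the lowest p and the most abundant on or off gene. As no gene was on or off in all 3 LPS pools, the last was taken from LPS replicates 1 and 3. Other genes are described without identifiers and were chosen after their values were seen. The comparison, the gene sums and the separate account of LPS 4 h replicate 2 were chosen with earlier results of these data known. Intervals and floors cover counting error only, as reads without molecular identifiers are not independent molecules. By a chi-square test of counts, every pair of libraries differed by at least 23.1 per degree of freedom, so no library was taken as a repeat of another.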

Additional observations from a re-analysis of the deposited data

How the results depend on the processing

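The count of 1 called Trinity gene was the same without robust estimation, with the 4 h libraries alone, under both other scalings and under both other filters. With the 4 h libraries alone it was another gene than TRINITY_DN4731_c0_g1, as it was without PBS 4 h replicates 1 and 3 and LPS 24 h replicate 1 in turn. Without PBS 4 h replicate 1 and without LPS 24 h replicate 1, the 1 gene called was lower in LPS pools, and 0 were higher. By edgeR the count of calls was 0 at an adjusted p below 0.01, against a fold of 2 (1416 at an unadjusted p below 0.05) and with single transcripts (6676). It was 0 with limma-voom (6381), and 2321 with DESeq2 and 6905 with quality weights. Leaving out 1 pool gave 0 to 7454 calls, 3561 to 11594 genes at an unadjusted p below 0.05, and 7391 to 16951 of 32542 genes whose pools did not overlap, each time with the highest value without LPS 4 h replicate 2. The number of genes without overlap, 5951 with all pools, can only rise when a pool is left out. Without PBS 4 h replicate 2 the pools did not overlap for 9962 genes, and without LPS 4 h replicates 1 and 3 in turn 3984 and 3561 genes had an unadjusted p below 0.05. Without LPS 4 h replicate 2 the calls were 8510 (DESeq2), 6963 (limma-voom), 6682 (4 h libraries alone), 7421 (median-ratio scaling) and 7613 (upper-quartile scaling). The genes at an unadjusted p below 0.05 were then 11597, 11173, 11525, 11550 and 11813 in the same order, and 11460 with quality weights and all pools.

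A replicate block gave 0 calls with all pools by edgeR, with 5547 genes at an unadjusted p below 0.05, and 4991 calls without LPS 4 h replicate 2, where 9858 had an unadjusted p below 0.05. Deviations of same-numbered LPS 4 h and PBS 4 h pools correlated between -0.123 and -0.0757, against -0.106 to 0.179 for pools of different number. No pairing by number was thus seen, but deviations from means of 3 pools cannot exclude it.

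Genes switched on numbered 3 with at least 5 counts, 2 with at most 3 counts allowed in the other group and 17 by single transcripts, and genes switched off 1, 1 and 35. Leaving out 1 pool gave 1 to 6 on and 0 to 8 off. Class medians moved by more than the spread between LPS pools with library totals alone, to -0.257, -0.270, -0.150 and 0.0051 in the 4 classes below 1000 CPM, from the weakest up, and with classes set by the PBS 4 h pools or the 24 h libraries to 0.021 and -0.014 below 1 CPM (-0.097 by the 4 h libraries) and to 0.0034 and 0.0023 at 10 to 100 CPM (0.039 by the 4 h libraries). No named gene changed direction. The cause was not tested.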
